A study of Mus musculus with 4 samples.

Results

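The transcripts of the kainate receptor family were followed in whole brain with and without the RNA-editing enzyme ADAR2. The family comprises the 5 channel subunit genes Grik1 to Grik5 and the 2 auxiliary genes Neto1 and Neto2, chosen by gene name. A search of the deposited gene symbols found all 7 genes, each on 1 transcript cluster. The array held 33793 clusters, of which 26688 carried a symbol, with 24515 symbols among them. A transcript cluster is the group of array probes designed for a transcribed locus, and the 7 clusters held 22 to 34 probes, none of them marked as able to cross-hybridize.

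The samples were 2 wild-type and 2 Adar2 knockout whole brains of adult female mice of strain 129SV, each on its own Affymetrix whole-transcript array. According to the study's methods the knockout animals were Gria2 R/R; AdarB1 -/- and the wild-type animals were their Gria2 R/R; AdarB1 +/+ siblings, from crosses of heterozygous parents. Both groups therefore carried the pre-edited Gria2 receptor allele, which rescues the early lethality of ADAR2 loss, and no brain with an unmodified Gria2 gene was compared. The deletion was constitutive and the tissue was a mixture of all brain regions, so that fewer cells of a type and less RNA per cell cannot be told apart.

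Kainate receptors are ionotropic glutamate receptors assembled as tetramers of subunits. GluK1, GluK2 and GluK3, the products of Grik1, Grik2 and Grik3, can form channels by themselves, whereas GluK4 and GluK5, the high-affinity subunits encoded by Grik4 and Grik5, need one of the former to reach the cell surface. NETO1 and NETO2 are transmembrane proteins with CUB domains that bind the receptor and alter its gating, and the receptors act both before and after the synapse, for example at the mossy fibre synapses of the hippocampus. The Grik1 and Grik2 messages are known substrates of A to I editing, which replaces a glutamine by an arginine in the pore of the channel. The arrays measured the level of each transcript and not its editing.

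Adarb1, which encodes ADAR2, was at a log2 signal of 10.50 and 10.45 in wild-type brain and at 9.16 and 8.96 in knockout brain. The genotypes did not overlap. With limma, a linear model with moderated variances, its p was 2.57e-05 unadjusted and 0.409 after adjustment over all clusters. No cluster had a lower adjusted p, so that the targeted gene itself did not pass an adjusted p of 0.05. The arrays were not equal in other respects. In Adar2 knockout replicate 1 the salivary gland markers stood out, with Bpifa2 at 12.61 against 5.09 to 5.28 on the other arrays and 4 of 8 marker clusters at or above 7.70 on that array. In Adar2 knockout replicate 2 the olfactory bulb markers Cdhr1 and Doc2g were at 6.66 and 6.70, against 7.44 to 7.92 on the other arrays. Values of the kainate receptor family are therefore also given without each knockout array, and the part of these tissues in any result was not tested. As a background level, 5 clusters of genes on the Y chromosome, absent from these females, lay between 3.49 and 5.43 on the 4 arrays, and all values of the kainate receptor family lay above them, from 7.06 to 10.37.

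No member of the family passed a test for a change in knockout brain. With limma, 0 of 7 clusters had an unadjusted p below 0.05, where 5.95% of all clusters did. After adjustment over all clusters 0 of 7 passed, where 0% of all clusters did, and adjusted p-values of the members ranged from 0.869 to 0.966. The fitted changes lay between -0.13 and 0.17 on the log2 scale, with 4 above and 3 below 0 and a median of 0.085 beside a median of 0.005 over all clusters. The median of the family rested on single arrays, since leaving out wild-type replicate 2 gave 0.005, leaving out wild-type replicate 1 gave 0.03 and leaving out knockout replicate 2 gave 0.035. The 95% intervals, taken one gene at a time, reached at most 1.37-fold up and 1.32-fold down in the knockout. The number of arrays limits the precision, and an exact permutation test of 2 against 2 arrays cannot give a two-sided p below 0.333.

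**Figure D1:**
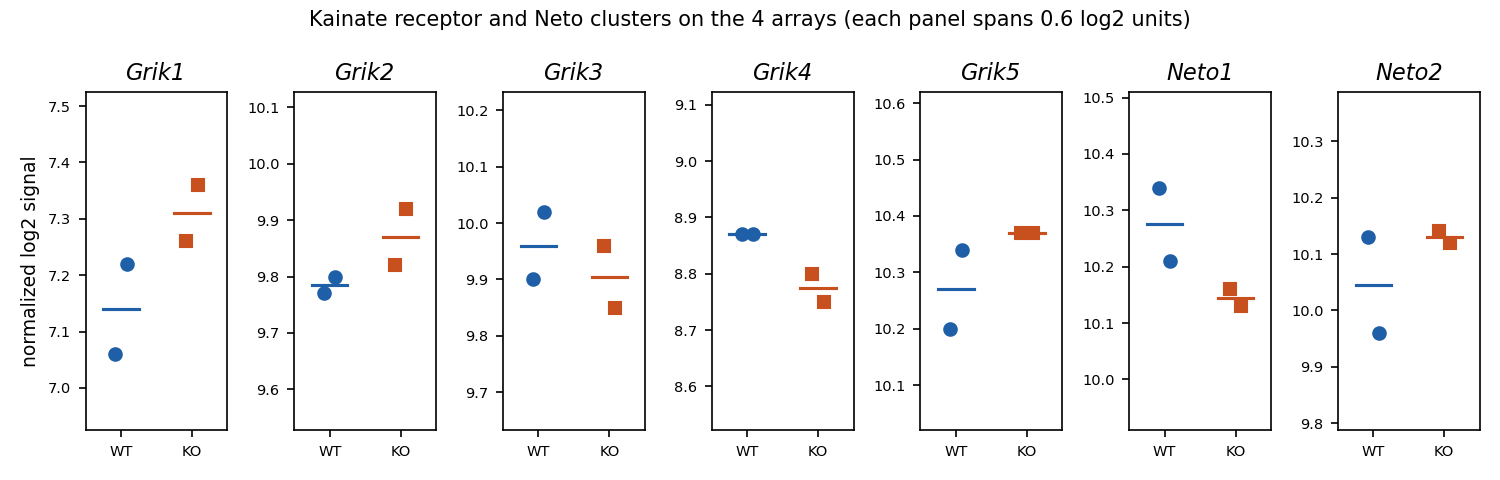
Normalized log2 signal of the 7 clusters in wild-type (WT, circles) and Adar2 knockout (KO, squares) brain; points are single arrays in the order replicate 1, replicate 2, lines are means of 2 arrays, and each panel spans 0.6 log2 units around its own centre. Grik1, Grik2 and Grik5 lie higher and Grik4 and Neto1 lower on both knockout arrays than on both wild-type arrays, while Grik3 and Neto2 overlap.

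The subunits that form channels by themselves were examined first. Grik1 (cluster 17331802, chromosome 16, 87895897 to 88290258, minus strand) encodes GluK1, a subunit that is prominent in inhibitory interneurons and in sensory neurons. Wild-type replicates 1 and 2 gave a log2 signal of 7.06 and 7.22, and knockout replicates 1 and 2 gave 7.26 and 7.36. Both knockout arrays lay above both wild-type arrays, although the nearest values differed by less than the 2 wild-type arrays did. The mean difference of 0.17 (95% interval -0.11 to 0.45, limma adjusted p = 0.869), or 1.13-fold, was the largest of the family in size on the deposited scale, whereas with each array centred on its median Grik1 was at 0.13 and Neto1 at -0.17. A larger change in either direction was seen in 27.4% of all clusters. The difference was 0.22 when Adar2 knockout replicate 1 was left out and 0.12 when Adar2 knockout replicate 2 was. It was 0.25 without wild type replicate 2 but 0.09 without wild type replicate 1, where Neto2 was at 0.17.

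Grik2 (cluster 17240693, chromosome 10, 49099460 to 49788766, minus strand) encodes GluK2, the subunit of most principal cells and the member whose message is edited at the largest number of known sites. It measured 9.77 and 9.80 in wild-type brain and 9.82 and 9.92 in knockout brain. The groups were set apart by the lowest knockout value lying just above the highest wild-type value. The difference of 0.085 (95% interval -0.18 to 0.35, limma adjusted p = 0.933) became 0.135 when knockout replicate 1 was left out and 0.035 when knockout replicate 2 was. Grik2 lies on the same chromosome as the targeted Adarb1 gene, at a distance of 27.5 Mb by the coordinates of the table.

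Grik3 (cluster 17418465, chromosome 4, 125490700 to 125714173, plus strand) encodes GluK3, a subunit of low glutamate sensitivity. Wild-type brain gave 9.90 and 10.02 and knockout brain 9.96 and 9.85. The groups overlapped, and the difference was -0.055 (95% interval -0.33 to 0.22, limma adjusted p = 0.966). It was -0.11 without Adar2 knockout replicate 1, 0 without Adar2 knockout replicate 2 and 0.005 without wild type replicate 2, so that its direction rested on single arrays.

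Of the high-affinity subunits, Grik4 (cluster 17526008, chromosome 9, 42518135 to 42944493, minus strand) encodes GluK4, which is known for its expression in CA3 neurons of the hippocampus. Its signal was 8.87 on both wild-type arrays and 8.80 and 8.75 on the knockout arrays. All 4 arrays lay within 0.12 of each other. Both knockout values were lower, by a mean of -0.095 (95% interval -0.35 to 0.16, limma adjusted p = 0.918). The difference stayed below 0 without either knockout array, at -0.12 and -0.07 without replicates 1 and 2. With each array centred on its median it was -0.135, and after quantile normalization it was -0.054.

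Grik5 (cluster 17487833, chromosome 7, 25009849 to 25072369, minus strand) encodes GluK5, the common partner of GluK2 in brain. It was at 10.20 and 10.34 in wild-type brain and at 10.37 on both knockout arrays. The knockout values were higher than both wild-type values, but wild-type replicate 2 lay only 0.03 below them. The difference was 0.10 (95% interval -0.17 to 0.37, limma adjusted p = 0.919), and it was 0.10 without either knockout array. Without wild type replicate 1 it was 0.03, and without wild type replicate 2 it was 0.17.

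Of the auxiliary genes, Neto1 (cluster 17352252, chromosome 18, 86394952 to 86501897, plus strand) encodes a protein that associates with kainate receptors at hippocampal mossy fibre synapses and was also described as a partner of NMDA receptors. It measured 10.34 and 10.21 in wild-type brain and 10.16 and 10.13 in knockout brain. Both knockout values were below both wild-type values. The difference of -0.13 (95% interval -0.40 to 0.14, limma adjusted p = 0.894) became -0.145 and -0.115 without knockout replicates 1 and 2. It was -0.065 without wild type replicate 1 and -0.195 without wild type replicate 2.

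Neto2 (cluster 17511377, chromosome 8, 85636588 to 85700754, minus strand) encodes the paralogue, for which expression in cerebellar granule cells is known. Wild-type brain gave 10.13 and 9.96 and knockout brain 10.14 and 10.12. The groups overlapped only in the sense that wild-type replicate 1 lay between the knockout arrays. The difference was 0.085 (95% interval -0.19 to 0.36, limma adjusted p = 0.939), and it was 0 without wild type replicate 2 and 0.17 without wild type replicate 1. Without knockout replicates 1 and 2 it was 0.075 and 0.095.

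**Figure D2:**
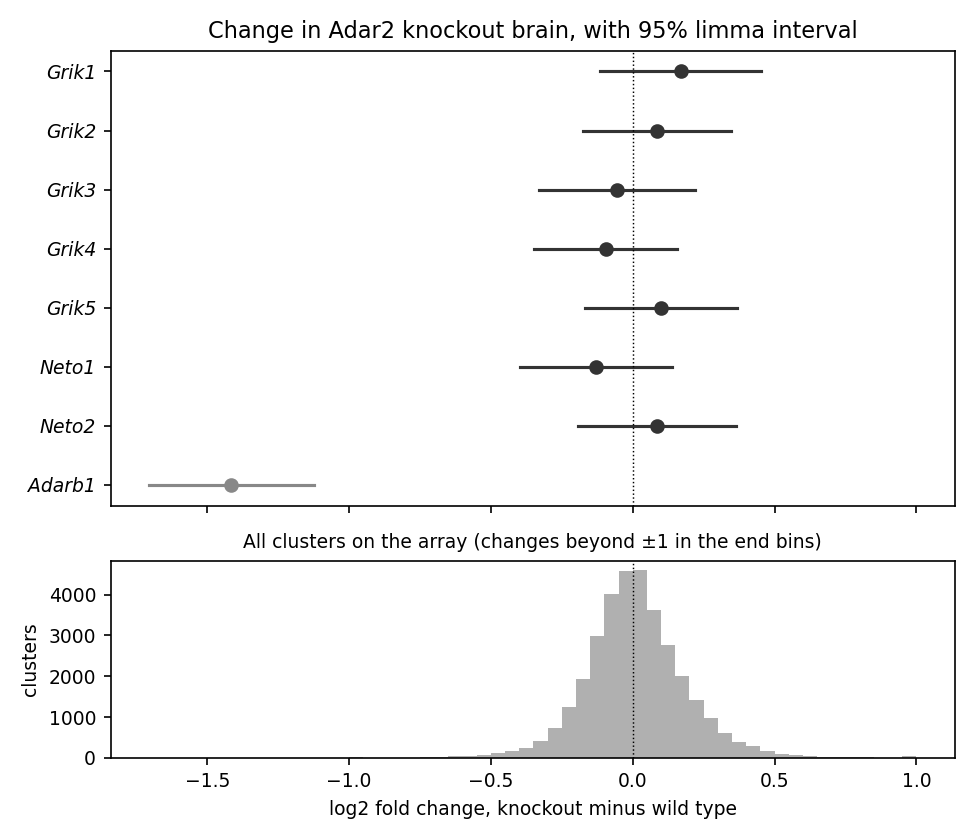
Log2 fold change (knockout minus wild type) of the 7 clusters and of Adarb1, with points for the limma estimate and bars for its 95% interval (2 arrays per genotype), above the distribution of changes over all 33793 clusters. The 7 estimates lie between -0.13 and 0.17 with intervals that include 0, and Adarb1 lies at -1.42.

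The values of the genotypes did not overlap in 5 of the 7 clusters, with 3 higher (Grik1, Grik2, Grik5) and 2 lower (Grik4, Neto1) in the knockout. Over the whole array the genotypes did not overlap in 34.1% of clusters, with 17.7% of clusters higher and 16.5% lower in the knockout. The count in the family depended on the scaling of the arrays. When each array was centred on its median it was 3 of 7 (Grik1 higher, Grik4 and Neto1 lower), beside 36% of all clusters. After quantile normalization it was 6 of 7, with Neto2 added on the higher side, beside 33.4%. The medians of the deposited arrays were 6.03 and 6.06 in wild-type and 6.09 and 6.08 in knockout brain, and what moved the counts was not tested. Grik1, Grik4 and Neto1 thus kept separate groups under the 3 scalings, and none of the 3 passed the test under any of them.

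By the median SD, the spread between wild-type animals was of the size of these differences and that between knockout animals was smaller. The SD of 2 wild-type arrays ranged from 0 for Grik4 to 0.12 for Neto2, with a median of 0.092 over the family, and in the knockout the median was 0.035. Wild-type replicate 1 gave the lowest value of the 4 arrays for Grik1, Grik2 and Grik5 and the highest for Neto1. The SE of the fitted differences, which limma moderates with a variance shared by all clusters, was 0.10 to 0.12 for every member. On the deposited scale only the differences of Grik1 and Neto1 exceeded this moderated SE. With the variance of each cluster alone the lowest p of the family was that of Grik4 (t-test without moderation, unadjusted p = 0.0628).

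A difference between 2 members on the same array does not change when that array is rescaled as a whole, and 3 such differences were formed after the values had been seen. Neto2 minus Neto1 was -0.21 and -0.25 on the wild-type arrays and -0.02 and -0.01 on the knockout arrays. The arrays of a genotype thus lay closer to each other than for either gene by itself, and the genotypes were 0.215 apart. The exact permutation p of this difference was 0.333 (two-sided), the smallest that 2 against 2 arrays allow. The mean of Grik1, Grik2 and Grik3 minus the mean of Grik4 and Grik5, which sets the subunits that form channels alone against the high-affinity subunits, was -0.63 and -0.59 in wild-type and -0.57 and -0.52 in knockout brain. The genotypes differed by 0.064 without overlap (exact permutation p = 0.333). Grik2 minus Grik5, the pair of the most common heteromer, was -0.43 and -0.54 in wild-type and -0.55 and -0.45 in knockout brain. These overlapped and differed by -0.015 (exact permutation p = 0.667). Since the signal of different probes is not on 1 common scale, the sign of such a difference within an array says nothing about which transcript is more abundant.

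**Figure D3:**
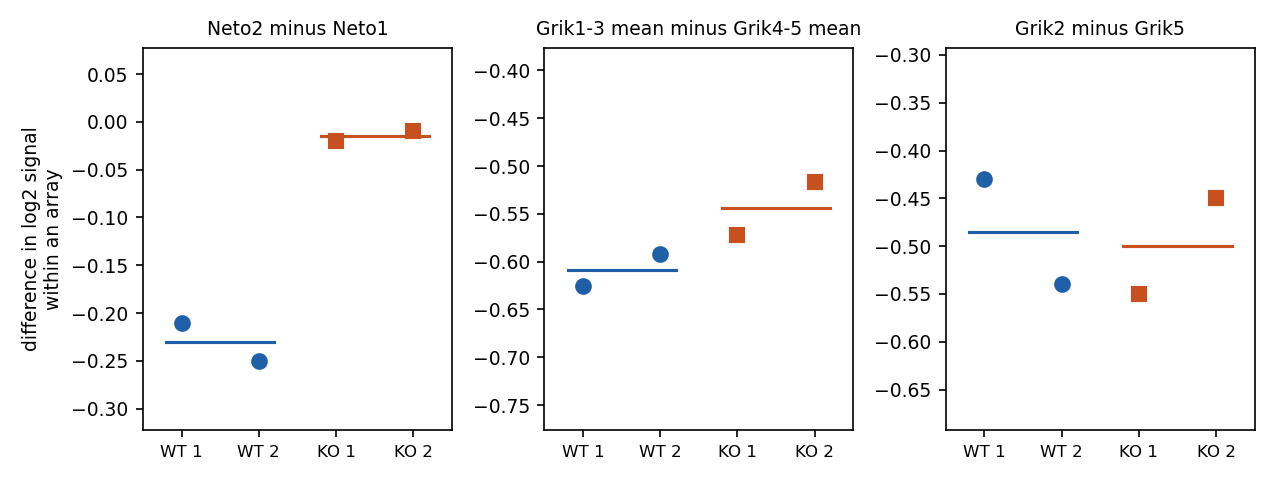
Difference in log2 signal between members on the same array, for Neto2 minus Neto1, for the mean of Grik1 to Grik3 minus the mean of Grik4 and Grik5, and for Grik2 minus Grik5; circles are wild-type (WT) and squares knockout (KO) arrays, lines are means of 2 arrays, and each panel spans 0.4 log2 units. Neto2 minus Neto1 lies at -0.21 and -0.25 in wild type and at -0.02 and -0.01 in the knockout.

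Proteins that anchor, move or modify kainate receptors were looked at next. A list of 26 genes was represented by 27 clusters. Cdh2 (N-cadherin) had its own cluster on chromosome 18, at 10.10 to 10.19, and its symbol was also given to a cluster on chromosome 4 that can cross-hybridize and lay at 6.19 to 6.44. Without the latter the counts of passing and of separate clusters were the same. With limma, 0 of 27 passed an unadjusted p of 0.05, beside 5.95% of all clusters, and 0 an adjusted p of 0.05. The median difference was -0.03, with 9 above and 17 below 0 and a range of -0.24 to 0.125. Of all 33793 clusters 17164 lay above and 16133 below 0. In 10 of 27 clusters the genotypes did not overlap, 7 of them lower in the knockout. Of all clusters 34.1% did not overlap, and 16.5% were lower without overlap. The following partners are named after their values were seen.

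Among the scaffolds, Cask had the lowest p of the list (limma adjusted p = 0.835). This membrane-associated guanylate kinase measured 9.26 and 9.15 in wild-type and 8.88 and 9.05 in knockout brain. Pick1, a PDZ protein that binds the C-termini of glutamate receptor subunits, gave 7.97 and 7.83 in wild-type and 7.73 and 7.66 in knockout brain (limma adjusted p = 0.846). Dlg4, which encodes the postsynaptic scaffold PSD-95, gave 10.89 and 10.84 against 10.75 and 10.70 (limma adjusted p = 0.873). Lin7b, a PDZ adaptor that binds CASK, gave 10.22 and 10.46 against 10.13 and 10.21 (difference -0.17). All 4 had lower values on both knockout arrays without passing the test. Among the related scaffolds the differences were 0.07 for Dlg1, -0.015 for Dlg2 and 0.025 for Dlg3, and 0 and 0.09 for Grip1 and Grip2.

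Of the partners that sort or degrade the receptor, Snx27, a sorting nexin of endosomes, was at 9.54 and 9.53 in wild-type and 9.65 and 9.67 in knockout brain. Klhl17, or actinfilin, which links GluK2 to a ubiquitin ligase, was at 7.96 and 7.94 against 8.07 and 8.06. Both showed narrow replicates and separate groups, with limma adjusted p-values of 0.887 and 0.900. When each cluster kept its own variance, 1882 of all 33793 clusters had an unadjusted p below 0.05. These included 3 of the 27 partner clusters, of which Snx27 and Klhl17 were 2. The third was Prkca (protein kinase C alpha), with a difference of -0.115. The C1q-like gene C1ql2, a secreted protein of mossy fibres that binds GluK2 and GluK4, was at 8.88 and 8.94 in wild-type brain, but at 8.57 and 8.98 in knockout replicates 1 and 2. Its difference was -0.135 over the 4 arrays and -0.34 without Adar2 knockout replicate 2, a value that rests on knockout replicate 1 alone, the array with the salivary gland markers. The array left out there lay above both wild-type arrays.

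The remaining ionotropic glutamate receptor subunits, of the AMPA, NMDA and delta classes, comprised 13 genes. With 1 cluster per gene, 0 of 13 had an unadjusted limma p below 0.05, beside 5.95% of all clusters. The median difference was -0.025 and the range was -0.19 (Grin2a) to 0.135 (Grin3b). The value of Grik1, 0.17, lay above this range and those of the other 6 members lay inside it. Another 4 clusters with the symbols Grin1, Grin2b, Grin2c and Grin2d lay on the strand opposite to the main cluster of the gene, at a signal of 4.58 to 6.96, and with them 0 of 17 passed and the range was -0.19 to 0.185. Among genes of glutamate loading and uptake 1 of 10 clusters passed an unadjusted p of 0.05, beside 5.95% of all clusters. This was Slc17a8, the vesicular glutamate transporter VGLUT3, with 6.63 and 6.70 in wild-type and 6.15 and 6.33 in knockout brain (log2 fold change -0.425, limma adjusted p = 0.834). The transporters of the major glutamatergic neurons, Slc17a7 and Slc17a6, differed by -0.015 and 0.015.

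Since whole brain was used, markers of the cells that carry kainate receptors were set beside the family. Of the dentate and CA3 markers 1 of 10 clusters passed an unadjusted p of 0.05, which 5.95% of all clusters did, and 7 of 10 lay below 0 (median -0.038). The groups did not overlap in 2 clusters that were higher and 3 that were lower in the knockout, where 17.7% and 16.5% of all clusters were. With 1 cluster per gene 1 of 9 passed, 6 of 9 lay below 0 and the median was -0.03. The one that passed was Prox1, the transcription factor of dentate granule cells, with 7.99 and 7.95 in wild-type and 7.52 and 7.66 in knockout brain (limma adjusted p = 0.834). Those with higher values were Bok, at 9.27 and 9.22 against 9.51 and 9.35, and Tdo2, at 4.64 and 4.61 against 4.78 and 5.13, inside the span of the Y-linked genes. Dsp, with a difference of -0.03, also lay inside that span, at 5.31 to 5.41. Calb1, the calcium-binding protein calbindin, differed by 0.07. Cerebellar granule neuron markers were below 0 in 11 of 12 clusters, with a median of -0.13 and separate groups, lower in the knockout, in 9 of 12, where 16.5% of all clusters were lower without overlap. None of the 12 passed an unadjusted p of 0.05. With 1 cluster per gene 9 of 10 were below 0, 7 of 10 were separate and the median was -0.115. Their median signal was 9.75 and 9.80 in wild-type and 9.70 and 9.73 in knockout brain, and the cerebellar marker Gabra6 was well measured on all arrays, at 9.61 to 9.78. Neto2, a gene of these cells, had a difference of 0.085, and the part of cell composition in the values of the family was not tested.

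GABAergic neuron markers had 0 of 11 clusters with an unadjusted p below 0.05, beside 5.95% of all clusters, and a median of -0.01, or -0.035 with 1 cluster per gene. Within them the genotypes did not overlap in 4 of 11 clusters, 1 higher and 3 lower in the knockout, beside 34.1% of all clusters without overlap. The higher one was Pvalb, the parvalbumin of fast-spiking interneurons, with 9.22 and 9.49 in wild-type and 9.61 and 9.66 in knockout brain (difference 0.28, limma adjusted p = 0.835). As for Grik1, wild-type replicate 1 was its lowest array. The lower ones were Lhx6, a transcription factor of interneurons (difference -0.225), and the neuropeptide genes Cck (-0.115) and Sst (-0.075). The GABA-synthesizing enzymes Gad1 and Gad2 differed by -0.01 and -0.06. Pan-neuronal markers had 0 of 8 and a median of -0.025. The same share of 5.95% stands beside the counts that follow. Astrocyte markers had 1 of 6, Gja1 (connexin 43, difference -0.27), and a median of -0.12. Oligodendrocyte markers had 1 of 6, Mog (myelin oligodendrocyte glycoprotein, difference -0.35), and a median of -0.022. Olfactory bulb markers had 1 of 7, Cdhr1 (difference -0.785), with a median of -0.135. Choroid plexus markers had 0 of 6 and a median of 0.035. Salivary gland markers had 0 of 8 and a median of 0.79, or 1.73 with 1 cluster per gene. These salivary medians rested on knockout replicate 1. The median deviation of the 8 clusters from their own means was 0.93 there and -0.14 on knockout replicate 2. For Gja1, Mog and Cdhr1 the limma adjusted p was 0.834 each.

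**Figure D4:**
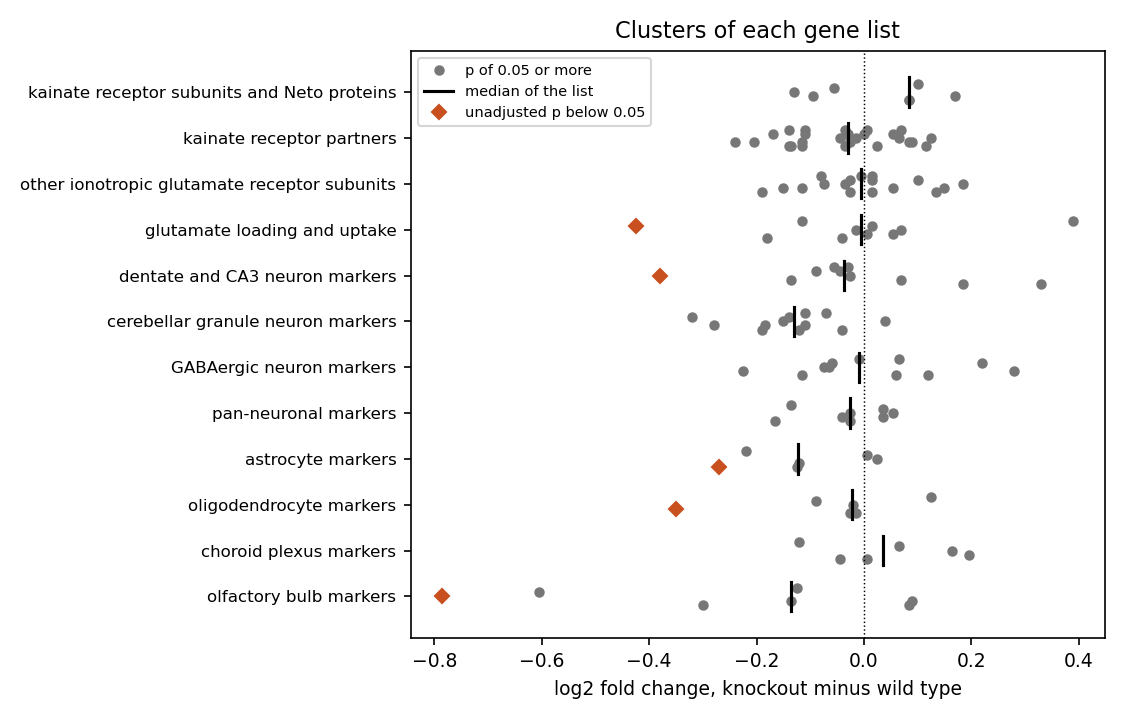
Log2 fold change (knockout minus wild type, 2 arrays each) of every cluster in the kainate receptor family, its partners, other glutamate genes and cell type markers; each point is a cluster, second clusters of a gene included, diamonds have an unadjusted limma p below 0.05, and vertical bars are list medians. The family spans -0.13 to 0.17 with no diamond, and the cerebellar granule neuron markers have a median of -0.13. The salivary gland markers are not drawn.

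For the member with the largest difference on the deposited scale, Grik1, the clusters with the most similar profile were looked up as the smallest Euclidean distance between mean-centred values over the 4 arrays. These were Zfp184 and Vmn2r14, each at a distance of 0.0141, and Hhipl1 at 0.0166. Vmn2r14, at a signal of 2.55 to 2.84, lay below the span of the Y-linked genes and Zfp184, at 5.09 to 5.38, inside it. As many as 678 clusters with a symbol lay within a distance of 0.1, so that a profile over 4 arrays does not single out genes.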

How the data were processed

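Per the labels and the study's methods, total RNA of 2 wild-type and 2 Adar2 knockout brains was labelled for whole-transcript arrays and measured at an array facility. The authors deposited normalized log2 signals per transcript cluster, to 2 decimals. The submitters' processing notes name Affymetrix Expression Console and RMA, which corrects background, quantile-normalizes and summarises probes, so that changes common to all genes are removed and small changes can be compressed. The deposited averages, ratios, fold changes and p-values were not used. The table names no genome build, and the 7 clusters overlapped the RefSeq GRCm38.p6 spans of their genes in 7 of 7 cases. Protein sequences were not used here.

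Genotypes were compared by a linear model with 1 term, genotype, and moderated variances (limma 3.58.1, functions lmFit and eBayes, run in R 4.3.3; two-sided), with Benjamini-Hochberg adjustment over 33793 clusters and no filter. The prior SD was 0.125 with 3.79 prior degrees of freedom. The residual degrees of freedom were 2, so that the prior had the larger weight in each variance. The p-values set a difference against this moderated spread between these arrays. The script was tested on simulated data. All member clusters, Adarb1, and up to 4 clusters per other list with an unadjusted p below 0.05 were to be named, with the 3 clusters most like the member with the largest change. Other names were chosen after their values were seen. The members and lists were chosen with earlier results of these data known. The lists were kainate receptor partners, other ionotropic glutamate receptor subunits, glutamate loading and uptake, editing enzymes, Y-linked genes and markers of dentate and CA3, cerebellar granule, GABAergic and all neurons, astrocytes, oligodendrocytes, olfactory bulb, choroid plexus and salivary gland. Of the editing enzymes 1 of 3 clusters, Adarb1, had an unadjusted p below 0.05, and of Y-linked genes 0 of 5. Alternatives were other scalings, a filter on dim clusters, other variance shrinkage, a replicate block, 1 value per gene, no cross-hybridizing clusters and leaving out each array. Lists in which a symbol was given to several clusters were also summarised with 1 cluster per gene, the brightest over all arrays of those in the RefSeq span of the gene (of all of them where none lay there), a choice made after seeing the data. Python 3.11.15 with pandas 2.3.3 read the table, and matplotlib 3.10.9 drew the plots.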

Additional observations from a re-analysis of the deposited data

How the results depend on the processing

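The signal of all members was above that of the Y-linked genes, and the number of arrays limits the precision. In 14 alternatives 0 of 7 members passed an unadjusted or adjusted p of 0.05, and Adarb1 ranged from -1.52 to -1.32. The direction of Grik1, Grik2, Grik4, Grik5 and Neto1 was the same in all 14, while Grik3 turned to 0.005 without wild type replicate 2 and ranged from -0.115 to 0.005 with single arrays left out. Neto2 came to 0 without wild type replicate 2. The median of the family moved from 0.085 to 0.045 with median centring, 0.115 after quantile normalization and 0.13 after cyclic loess. It ranged from 0.005 (without wild type replicate 2) to 0.075 with single arrays left out. The median was 0.03 without wild type replicate 1 and 0.035 without Adar2 knockout replicate 2. Partner clusters with an unadjusted p below 0.05 went from 0 to 3 of 27 without shrinkage, where 1882 of all 33793 clusters had one. They were 0 with 1 cluster per gene, an alternative chosen after seeing the data. Over the whole array 2009 clusters had an unadjusted p below 0.05, 1230 higher and 779 lower, which became 801 higher and 1229 lower with median centring, and 1221 in all without wild type replicate 1. Pairing by replicate number was not borne out by the arrays (r = 0.0516 between the deviations of same-numbered arrays, over all clusters). In the fit with this block 0 of 7 members and 0 partners had an unadjusted p below 0.05, the median of the family was 0.085 and Adarb1 was at -1.42. What caused these shifts was not tested.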
